A study of Mus musculus with 58 samples.

Results

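The inserts described here yielded little RNA in both nascent and steady-state libraries and had no spliced form to count. They are 649 of the 16461 inserts, each 175 nt long, that INSERT-seq placed behind a promoter in mouse embryonic stem cells. INSERT-seq integrates a pool of short sequences at 1 genomic site and compares each insert's share of the RNA reads with its share of the genomic DNA (gDNA) reads of the same cells. The level of an insert, L, is log2 of its RNA share over its gDNA share, with 2 reads added to each count, minus the median of that value in the library. A level of 0 is therefore the typical insert, and a negative level means less RNA per integrated copy. Eligible inserts had no spliced reference and at least 50 reads in each of 5 gDNA libraries, which left 9198. Members were chosen by their own RNA values: a mean L of -1.5 or less over 4 total RNA libraries and also over 2 run-on RNA libraries, 7.06% of the eligible inserts. Either condition alone took in more inserts: 1757 were at or under -1.5 in total RNA and 1224 in run-on RNA, so the members were 36.9% of the first set and 53.0% of the second.

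Pervasive transcription starts at many more places than genes, and most mammalian promoters also fire in the antisense direction. RNA polymerase II that leaves such a start site often terminates early, and the short RNA is then degraded by the nuclear exosome, a complex that digests RNA from its 3′ end. Splice sites and polyadenylation signals in the transcribed sequence are known to bear on whether the polymerase goes on and whether the RNA lasts. Run-on RNA reads polymerases that are engaged, chromatin-associated RNA reads transcripts still held at the gene, and total RNA reads what has accumulated.

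The libraries fall into these groups. In F121-9 cells, a hybrid line with 129 and CAST alleles, the 129 allele of Pou5f1, which encodes the pluripotency factor Oct4, carried TagBFP2 at the Oct4 C terminus and the red fluorescent reporter mKate2 on its antisense side, past the start site of the upstream antisense RNA. Every Pou5f1 group below carries both changes. Inserts sat 157 nt from the antisense start, upstream of mKate2. From untreated cells of this line came 2 chromatin RNA libraries, 2 run-on RNA libraries after a 15-minute run-on, 4 total RNA libraries, 5 gDNA libraries and 2 screens of cells sorted into 6 bins. The other site was the lincRNA gene 4930461G14Rik (14Rik) in unmodified F121-9 cells, 102 nt from its start on the CAST allele, with 3 screens. The reporter line also gave 3 siRRP40 cultures, 48 h after 40 nM of an siRNA pool against EXOSC3 (RRP40), a subunit of the exosome, and 3 siNT cultures with a non-targeting siRNA at the same dose and time. RNA was primed 221 nt downstream of the insert at Pou5f1 and 287 nt downstream at 14Rik, so RNA that ended before the primer was not read. Nothing in the labels says whether the reporter line is a single clone, or whether replicates came from separate integrations, so p-values measure only the spread between these libraries. The knockdown of EXOSC3 and the identity of the cells could not be checked, since the counts cover inserts alone.

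Depth ranged over 2665226 to 94099800 reads per RNA library, 1991728 to 48334996 per gDNA library and 507182 to 7437828 per sorted bin. Inserts carry only a number in the files, without a gene, a position or a sequence. No sequence is therefore shown, and each comparison names no more than 2 inserts per direction. Members were less well covered than other inserts, with a median over inserts of 594 gDNA reads, against 1214 for the 8549 eligible inserts that are not members (called non-members below). Members with 200 reads or more in each of the 5 gDNA libraries numbered 63. A second set is used for contrast: 517 eligible inserts that also had a mean L of -1.5 or less in total RNA but -0.5 or more in run-on RNA, with a median of 715 gDNA reads. Their median of mean L in total RNA was -2.10, above the -2.60 of the members, so the sets are not matched in level. A low RNA share per gDNA share does not tell less RNA from every copy apart from fewer copies that make RNA.

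The values that chose the members are a description. The median member stood at -2.28, -2.13, -2.86 and -2.64 in the 4 total RNA libraries, which is 4.39 to 7.24 times below the typical insert. In run-on RNA the medians were -3.67 and -1.83, and 84.4% of members were at or under -1.5 in the first run-on library, against 58.1% in the second. The first run-on library thus set the members further apart than the second did. It shares its gDNA library with total RNA library 4, so the conditions on total and run-on RNA are not independent measurements. Only 113 members were at or under -1.5 in each of the 6 libraries, and 314 in at least 5. Members also varied more between replicates, with a median SD of L over the 4 total RNA libraries of 1.52, against 0.67 for non-members. Counts of 0 were common: 260 members (40.1%) had at least 1 total RNA library with no read, against 4.33% of non-members, and no member was at 0 in all 4. Just inside the total RNA threshold was sequence_07848 (-1.502), and just outside was sequence_14736 (-1.498). At the run-on threshold the neighbours were sequence_10692 (-1.501) inside and sequence_06147 (-1.498) outside.

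The lowest pair by the sum of both means shows how unlike members can be elsewhere. Insert sequence_10093 had 0, 0, 0 and 28 reads in total RNA beside 68, 458, 194 and 484 gDNA reads, and its L in run-on RNA was -4.47 and -5.77. It stayed low wherever it was read: no read in either chromatin RNA library, and L of -5.62, -2.77 and -3.49 at 14Rik, -5.88, -3.66 and -3.42 in siRRP40 and -6.91, -4.05 and -5.08 in siNT cultures. Insert sequence_11748 had 10, 0, 0 and 50 reads in total RNA beside 124, 184, 552 and 456 gDNA reads, and L of -5.29 and -5.83 in run-on RNA. Its chromatin RNA was much closer to typical, with L of -0.30 and -1.24. At 14Rik it stood at -1.22, -0.78 and -1.55, while the siRRP40 and siNT cultures held 2 or fewer gDNA reads of it and give no level.

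The siRRP40 and siNT cultures carry the same site in libraries that the rule did not use, and most members that could be tested there were low again. Where each gDNA library of the group held 50 reads or more of the insert, 435 members were tested in siRRP40 and 396 in siNT cultures. Their median L was -2.47, -2.46 and -2.56 in the siRRP40 cultures, and -2.81, -2.97 and -2.93 in the siNT cultures. All 6 medians were far below those of non-members, which lay between 0.18 and 0.22. In siRRP40 cultures 384 members (88.3%) had a lower RNA than gDNA share after TMM scaling, and 3 a higher one (edgeR quasi-likelihood test with Benjamini-Hochberg adjustment, adjusted p under 0.05). TMM scaling put the typical insert near 0, so these calls are relative to it. Of all 11027 inserts tested there, 31.3% were lower and 33.8% higher. In siNT cultures 362 of 396 members (91.4%) were lower and 2 higher, beside 30.7% lower and 33.7% higher of all 10406 inserts. Scaled to library totals, 420 members were lower and 1 higher in siRRP40 cultures, and 387 lower and 1 higher in siNT cultures. Of all inserts, 48.9% and 49.0% were then lower. The median log2 fold change of RNA over gDNA was -2.61 for members in siRRP40 cultures and -3.10 in siNT cultures, beside -0.01 and 0.02 for all inserts tested. In the contrast set 79.1% of 377 inserts were called lower in siRRP40 and 80.7% of 363 in siNT cultures, with medians of -1.87 and -2.13. Of the members with 200 reads or more in every rule gDNA library, 47 of 52 tested were lower in siNT cultures.

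Among the named inserts, the lowest and the exceptions were both clear in the counts. Insert sequence_11457 had no read in any of the 3 siRRP40 RNA libraries beside 132, 122 and 390 gDNA reads, and no read in the 3 siNT RNA libraries beside 96, 178 and 24. Insert sequence_15248 also had no RNA read in siRRP40 cultures, beside 130, 76 and 62 gDNA reads. With every RNA library at 0, their fitted fold changes depend on the prior count and are not given. In siNT cultures, insert sequence_06810 had 2, 14 and 2 RNA reads beside 242, 488 and 622 gDNA reads (log2 fold change -9.13, SE 0.65, edgeR adjusted p = 1.24e-07). Insert sequence_13974 had 2, 0 and 0 RNA reads beside 80, 106 and 86 (log2 fold change -9.60, SE 1.34, edgeR adjusted p = 4.01e-05). Its L in run-on RNA was -0.28 and -5.54, so its place among the members leans on 1 run-on library. In chromatin RNA it stood above typical, with L of 1.71 and 0.74. The exception was insert sequence_12993, whose L was 0.95, 1.16 and 0.63 in siRRP40 and 0.62, 1.79 and 0.76 in siNT cultures, although it had been -2.19, -1.51, -0.57 and -3.10 in the total RNA libraries of the rule. Its rise over gDNA in siNT cultures (log2 fold change 1.02, edgeR adjusted p = 0.021) was lost without siNT culture B (0.69, adjusted p = 0.19). In siRRP40 cultures (0.90, edgeR adjusted p = 0.023) it was lost without culture A (0.91, adjusted p = 0.080) or culture B (0.81, adjusted p = 0.11). Insert sequence_03071 was higher in siRRP40 cultures, with 3914, 1888 and 1844 RNA reads beside 160, 128 and 222 gDNA reads (log2 fold change 1.52, SE 0.35, edgeR adjusted p = 0.0021). All 3 calls of a higher share were lost when libraries were scaled to their totals without TMM, which lowers every insert's value by about the same amount (the median of all inserts moves to -0.85 in siNT and -0.80 in siRRP40 cultures).

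The siRRP40 cultures were compared with siNT cultures to measure each insert's RNA with and without siRNA against the exosome subunit. The extent of the knockdown was not analysed here. The members' median difference lay above 0, and edgeR called none of them. Of 364 members tested for the difference between siRRP40 and siNT in RNA over gDNA, 0 were called higher and 0 lower by edgeR, and likewise 0 of all 9812 inserts (0% each way). At an unadjusted p under 0.05, edgeR had 25 members higher (6.87%) and 5 lower (1.37%), beside 4.11% and 4.38% of all inserts. DESeq2 called 4 members higher and 0 lower at an adjusted p under 0.05, beside 0.326% and 0.265% of all inserts. With a minimum of 200 gDNA reads edgeR called 1 of 139 members higher, beside 0.10% of all inserts. The median log2 difference over the members was 0.30, beside -0.0042 over all inserts. The contrast set, low in total RNA only, had a median of 0.23, and non-members one of 0.0086. The members' median difference lay between 0.21 and 0.45 over the other scalings, filters and left-out cultures that were run, and stayed 0.22 to 0.32 above the median of all inserts.

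Chromatin-associated RNA was read in 2 of the screens whose total RNA chose the members (screens 2 and 3), so its cells are not independent of the rule. Against the gDNA of their own screens, which the rule also used, the median member stood at -1.53 and -1.86. A mean L of -1.5 or less was found for 404 of 649 members (62.25%), beside 37.5% of the contrast set and 11.6% of non-members. The contrast set had -0.69 and -1.04, and non-members 0.06 and 0.07. Members were thus below the contrast set in each chromatin library. A count of 0 in at least 1 chromatin library was seen for 227 members (35.0%) and in both for 57, against 5.22% and 47 of the 8549 non-members. For a test apart from the rule's gDNA, chromatin RNA was set against the gDNA of unsorted cells from the sort screens. edgeR called 0 of 604 members and 0 of 13545 inserts (0%) at an adjusted p under 0.05. At an unadjusted p under 0.05 it had 132 members lower (21.9%) and 0 higher, beside 5.46% and 5.66% of all inserts, and DESeq2 called 84 lower (13.9%) and 0 higher at an adjusted p under 0.05, beside 3.07% and 2.18% of all. The members' median log2 fold change was -1.70, beside -0.08 for all inserts. With a single chromatin library kept, and that library assumed to vary like the unsorted ones, 185 members were lower without the library of screen 2 and 168 without that of screen 3, beside 8.39% and 7.58% of all inserts.

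At 14Rik, where promoter, downstream sequence and cells all differ from the reporter, the members were low as well, but less so and less uniformly. Of the 649 members, 587 had enough gDNA reads, and their median L was -1.57, -2.02 and -2.04 in the 3 screens, against 0.11 to 0.14 for non-members. Of these, 294 (50.1%) had a lower RNA than gDNA share after TMM scaling, and 4 a higher one (edgeR, adjusted p under 0.05). Over all 14755 inserts tested, 18.5% were lower and 24.4% higher. The median log2 fold change was -2.07 for members, -1.60 for the contrast set (40.6% of 473 lower) and -0.08 for all inserts. Without screen 3 the members called lower numbered 135 of 602, beside 6.78% of all inserts. DESeq2 called 394 of 587 members lower and 6 higher, beside 27.5% and 27% of all inserts. Members above the typical level on the mean of the 3 screens numbered 42 (7.16%). Lower in 14Rik, siRRP40 and siNT libraries at once were 154 of the 328 members tested in all of them (47.0%), beside 11.7% of all 9264 inserts so tested and 104 of 319 (32.6%) in the contrast set.

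The lowest named inserts at 14Rik were near 0 in counts. Insert sequence_07019 had 34, 0 and 0 RNA reads beside 1576, 1678 and 868 gDNA reads (log2 fold change -8.93, SE 1.52, edgeR adjusted p = 0.0032). Insert sequence_10369 had 0, 0 and 2 RNA reads beside 134, 392 and 310 (log2 fold change -9.34, SE 1.61, edgeR adjusted p = 0.0033). The same insert was close to typical in siRRP40 cultures, with L of -0.21, -0.57 and 0.45. Its L in run-on RNA was -3.99 and 0.09, so its place among the members leans on 1 run-on library. On the other side, insert sequence_11913 had 9418, 3534 and 4402 RNA reads at 14Rik beside 4786, 510 and 724 gDNA reads (log2 fold change 1.53, SE 0.34, edgeR adjusted p = 0.0086). That call was lost without screen 3 (1.39, adjusted p = 0.095) and with libraries scaled to their totals (0.81, adjusted p = 0.073). Insert sequence_01862 was also higher at 14Rik, with L of 1.79, 2.96 and 3.27 (log2 fold change 2.67, SE 0.38, edgeR adjusted p = 0.0016). Its place among the members leans on 1 gDNA library: it had 67874 gDNA reads in screen 3 at Pou5f1 (L of -5.56), against 124, 6252 and 5428 in the other total RNA screens (1.43, -1.34 and -1.51).

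Set directly against each other, 14Rik screens gave a higher RNA over gDNA than siNT cultures for 37 of 357 members (10.4%) and a lower one for 5 (1.40%), beside 5.5% and 4.74% of all 9812 inserts (edgeR interaction, adjusted p under 0.05). The median log2 difference was 0.83 for members and 0.73 for the contrast set, beside -0.07 for all inserts. Members were chosen for low values at Pou5f1, which favours this direction, and the contrast set, chosen the same way in total RNA, had 39 of 338 higher (11.5%). Site, allele, cell line and transfection differ together here and cannot be told apart, and the siNT libraries are also those of the siRRP40 comparison. Without 14Rik screen 3 there were 23 higher, beside 2.44% of all inserts. The count of lower members was 13 without 14Rik screen 1, beside 7.06% of all inserts. It was 3 without siNT culture A or B, beside 2.05% and 1.60% of all inserts. Insert sequence_06810 stood at 1.07, 0.62 and -0.996 at 14Rik and at -9.01, -7.78 and -9.52 in siNT cultures (log2 difference 9.41, SE 0.92, edgeR adjusted p = 0.00015). Insert sequence_11447 stood at 0.91, 1.45 and 0.87 at 14Rik and at -6.57, -5.22 and -6.79 in siNT cultures (log2 difference 7.28, SE 0.58, edgeR adjusted p = 4.65e-05). Groups that did not overlap were a condition for naming an insert in this comparison. In untreated Pou5f1 cells, total RNA L of sequence_06810 was -1.86, -2.05, -3.37 and -2.775. That of sequence_11447 was -1.865, -3.46, -3.30 and -2.44. For both inserts these values lay between those of siNT cultures and 14Rik, so the log2 differences cannot be read as differences of site alone. The reason was not tested. The other named pair went the opposite way. Insert sequence_03071 stood at -4.44, -7.22 and -6.30 at 14Rik and at -0.93, 1.02 and 0.94 in siNT cultures (log2 difference -6.54, SE 1.09, edgeR adjusted p = 0.0044). Insert sequence_11556 stood at -4.95, -6.79 and -8.04 at 14Rik and at -1.92, -4.02 and -2.02 in siNT cultures (log2 difference -4.13, SE 1.07, edgeR adjusted p = 0.030). In untreated Pou5f1 cells, total RNA L was -2.75, -0.90, -3.27 and -0.86 for sequence_03071. For sequence_11556 it was -1.225, -2.28, -2.20 and -2.09. The call for sequence_11556 was lost without 14Rik screen 2 (adjusted p = 0.056) or 3 (0.066), without siNT culture A (0.12), B (0.056) or C (0.12), and without the replicate block (-3.32, 0.070).

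Across inserts, members kept little of the order that other inserts shared between sites. The Spearman correlation of mean L at 14Rik with mean L in siNT cultures was 0.21 over 357 members and 0.73 over 6579 non-members. Between siRRP40 and siNT cultures, at the same site, it was 0.78 over 364 members and 0.94 over 6581 non-members. The points share libraries and gDNA depth, and members span a narrower and less precisely measured range, so these are descriptions.

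In the sorted cells 200 of 404 tested members lay toward the low bin numbers, 92 toward the high ones, and 112 were called neither way. Cells carrying the library were sorted into 6 bins, and the abundance of each insert's gDNA was followed over bin number. The labels give neither the fluorescence sorted on nor the direction of the bins. In non-members, mean L in total RNA and the slope over bins had a Spearman correlation of 0.51 (7215 inserts), so inserts with more RNA tended to lie in higher bins. A minimum of 50 reads per unsorted library, and of 100 reads summed over a screen's bins, left 404 members to test. Their slope was higher toward bin 6 for 92 (22.8%) and lower for 200 (49.5%; edgeR, adjusted p under 0.05). Of all 10229 inserts tested, 23% had a higher and 28.1% a lower slope. In this fit the share of members with a higher slope was close to that of the library, but other settings moved it. It was below the library's with DESeq2 (108 of 404, beside 39.3% of all inserts). The same held with the paired references described below summed (85 of 393, beside 28.1%). Without sort screen 1 it was above (87 of 423, beside 17.9%). In the contrast set 28 of 378 (7.41%) were higher and 225 (59.5%) lower.

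Where the cells lay can be read without a fit. After each bin was scaled to its total, the top bin was bin 1 for 163 members in sort screen 1 and 172 in sort screen 2, and bin 6 for 61 and 79. For bin 1 these are 40.4% and 42.6% of members, beside 16.4% and 13.5% of non-members. For bin 6 they are 15.1% and 19.6%, beside 8.61% and 9.95%. Bin 2 was on top for 75 and 56, bin 3 for 44 and 46, bin 4 for 24 and 17, and bin 5 for 37 and 34. Non-members had 21.0% and 21.1% in bin 2, 21.8% and 22.0% in bin 3, 18.5% and 18.6% in bin 4, and 13.8% and 14.8% in bin 5. Members with their top bin among 1 and 2 in both screens numbered 203 (50.2%), against 30.2% of non-members, and those with it among 5 and 6 numbered 88 (21.8%), against 18.5%. The members called lower had a median mean bin of 1.56 and 1.53 in the screens, those called higher 5.41 and 5.58, and those not called 2.90 and 3.31. In each RNA readout the median of mean L was lower for members with a higher slope than for those with a lower one: -2.32 and -1.57 in chromatin RNA, -2.56 and -2.12 in run-on RNA, -2.76 and -2.45 in total RNA, -2.32 and -2.15 at 14Rik, -2.90 and -2.53 in siRRP40 and -3.31 and -2.96 in siNT. The run-on and total RNA values are those that chose the members, and these differences were not tested. Over members, the Spearman correlation of slope with mean L was small: -0.03 in total RNA, -0.14 in run-on RNA and -0.13 in chromatin RNA. It was -0.08 in siRRP40, -0.04 in siNT and 0.03 at 14Rik. Of the 92 members with a higher slope, 61 come from the stretch of numbers described below, so the contrast is in large part one of that stretch with the rest. Screens placed a member in much the same bins, with a Spearman correlation of mean bin between screens of 0.87 over members and 0.92 over non-members. Calls of a lower slope depended on screen 2, the deeper one: without it 13 of 411 members were lower and 57 higher, beside 1.12% and 12% of all inserts. Without screen 1 there were 136 lower and 87 higher of 423, beside 14.0% and 17.9% of all inserts. The split over all inserts moved with the scaling too, with 45.0% of calls higher under TMM and 54.3% under DESeq2's size factors, and a median slope of all inserts of -0.33 and 0.09 per bin.

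The named inserts with called slopes were counted mostly toward either end of the bins. Insert sequence_11717 had 0%, 0%, 0%, 0%, 37.6% and 62.4% of its bin-scaled reads in bins 1 to 6 of sort screen 1, from 714 reads. In sort screen 2, with 2852 reads, bins 5 and 6 held 11.4% and 88.1% (log2 slope 3.92 per bin, SE 0.62, edgeR adjusted p = 3.26e-06). Insert sequence_03808 lay in the same place, with 30.9% and 69.1% in bins 5 and 6 of screen 1 and 25.9% and 73.3% in screen 2 (3.90, SE 0.70, edgeR adjusted p = 1.99e-05). Both yielded little RNA at Pou5f1: L was -1.49, -3.01, -3.37 and -4.92 for sequence_11717 and -3.47, -1.87, -7.66 and -4.57 for sequence_03808 in total RNA. At the other end of the bins, insert sequence_06912 had 73.1% and 26.9% in bins 1 and 2 of screen 1 and 73.1% and 26.5% in screen 2 (-3.87, SE 0.62, edgeR adjusted p = 4.67e-06). Insert sequence_10692 had 78.0% and 18.6% in bins 1 and 2 of screen 1 and 90.4% and 9.10% in screen 2 (-3.83, SE 0.52, edgeR adjusted p = 3.62e-07), a call that was lost without sort screen 2 (-2.78, adjusted p = 0.053).

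Most members with a higher slope carried numbers from 1 stretch of the library, 11320 to 11916. This stretch of 597 inserts was singled out after its values were seen, so what follows is a description. Its limits are the lowest and highest numbers among the paired references described below. It held 85 of the 649 members, 20.1% of its 422 eligible inserts, against 6.43% (564 of 8776) elsewhere. Of the 67 members of the stretch that were tested in the sort, 61 had a higher slope (91.0%) and 2 a lower one. Among the 337 tested members from elsewhere, 31 were higher (9.20%) and 198 lower (58.8%). The non-members of the stretch leaned the same way, with 180 of 304 higher (59.2%) and 20 lower, beside 20.1% and 28.7% of the 6911 non-members elsewhere. Members and non-members of the stretch thus both leaned toward the higher bins. The lean was there under each scaling and filter and without either screen: of the members of the stretch that each fit tested, 67.2% to 92.5% had a higher slope, against 3.49% to 19.2% elsewhere. In RNA its members were at least as low as others, with a median of mean L of -2.36 at 14Rik, -2.99 in siRRP40 and -3.55 in siNT, against -2.05, -2.50 and -2.91 for members from elsewhere. In siNT cultures 57 of the 59 tested members of the stretch were lower (96.6%), beside 90.5% of members from elsewhere. Of non-members, 45.05% in the stretch and 25.8% elsewhere were lower there. Its non-members stood at -0.97 at 14Rik, -1.003 in siRRP40 and -0.97 in siNT, against 0.15, 0.23 and 0.26 for non-members from elsewhere. Between 14Rik and siNT, 12 of its 57 members were higher at 14Rik (21.1%), against 25 of 300 elsewhere (8.33%). Among non-members 6.64% in the stretch and 4.67% elsewhere were higher. Of the named inserts, sequence_11447, sequence_11457, sequence_11556, sequence_11717, sequence_11748 and sequence_11913 come from this stretch.

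Many inserts of the stretch were counted in pairs with nearly the same counts. The span of these pairs set the limits of the stretch, so every pair lies in it by definition. Pairs whose numbers differ by 300 were taken as such where the chi-square per library, over libraries with at least 10 read pairs, was under 10. There were 159, with a median of 1.59 and a highest value of 8.33, and the next pair at that distance had 11.1. Only 4 pairs met this at all other distances up to 1000. Values of such a pair cannot be counted as independent. Paired references account for 48 members, and in 20 pairs both references are members. Counting each such pair once leaves 629 members, and the members with a higher slope become 74. With the counts of each pair summed before the fit, 46 of 50 tested members of the stretch still had a higher slope (92.0%). None of the inserts named above belongs to such a pair.

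Members were also unevenly spread over the rest of the numbering. They made up 0.94% to 1.47% of the eligible inserts among numbers 1 to 4000, 3.77% and 4.26% in the next 1000 and the 1000 after that, and 8.47% to 14.8% per 1000 from 6001 to 11000. Between 11001 and 12000 they reached 18.2%. After that the share moved up and down, with 9.48%, 16.5%, 1.64% and 12.6% per 1000 and 2.77% from 16001 on. The sources used here do not say what the order of the numbers stands for.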

How the data were processed

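Counts of reads per insert reference were deposited by the authors for each library, and they are raw: per the file headers and names, RNA reads were assigned to a spliced or an unspliced reference of an insert, and gDNA reads to unspliced references alone. The submitters' processing notes name cutadapt 1.14 and Bowtie2 2.3.4.3. Each deposited count is even (0 odd counts), as when both mates of a pair count. No molecular identifiers are given, so errors cover reads, not molecules. Of 58 samples, 46 had counts, and the 12 samples of other assays (PRO-seq, TT-seq, ChIP-seq) were not analysed here.

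RNA was the sum of both kinds of reference. Tests used edgeR 4.0.16 (quasi-likelihood, TMM) in R 4.3.3 on inserts with at least 50 reads in each gDNA library of the fit, adjusted by Benjamini-Hochberg over all inserts tested, with an adjusted p under 0.05 as the threshold. RNA and gDNA of a culture or screen formed a block, since the labels give them the same number or letter. Their deviations from group means correlated at 0.292 to 0.295 in siNT, 0.306 to 0.343 in siRRP40 and 0.042 to 0.28 in 14Rik libraries. Site and siRNA comparisons were interactions. Chromatin RNA was set against unsorted gDNA, and sort bins were fitted as a slope over bin number with the screen as a block. DESeq2 1.42.0 was an alternative. Each fit was also run on counts simulated from its own model, with known changes put into some inserts. Such counts cannot show whether the model suits the data. The changes put in were far larger than the members' median difference between siRRP40 and siNT, so power for that difference was not measured. The members, sets and lists were chosen with earlier results of these data known. In each comparison, the inserts named are at most 2 members per direction with the largest change, past the threshold, in the same direction in every replicate or with groups that do not overlap, and with a mean of at least 200 gDNA reads. For the rule's own values they are the lowest 2 and those next to each threshold.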

Additional observations from a re-analysis of the deposited data

Results flagged for a closer look

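The difference between 14Rik screens and siNT cultures at Pou5f1 passed the test for some members. At 14Rik 37 were higher (10.4% of 357 tested, beside 5.5% of all inserts) and 5 were lower (beside 4.74% of all inserts). In the contrast set, also chosen for low values at Pou5f1, 39 of 338 were higher (11.5%). The largest of the named ones were sequence_06810, with a log2 difference of 9.41, and sequence_11447, with 7.28. In the other direction sequence_03071 had a log2 difference of -6.54 and sequence_11556 one of -4.13 (edgeR interaction, adjusted p from 4.65e-05 to 0.030). Naming an insert here required all 3 14Rik values to lie on the same side of all 3 siNT values. For sequence_06810 and sequence_11447, total RNA L in untreated Pou5f1 cells lay between the siNT and the 14Rik values. Site, allele, cell line and transfection cannot be told apart in these differences.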

How the results depend on the processing

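The number of members followed the rule's settings: 1221 with thresholds of -1, 361 with -2, 357 with at least 100 gDNA reads and 104 with at least 200. Leaving out 1 library gave 481 to 807. The lowest was without the first run-on library (377 shared with the 649) and the highest without the second (548 shared).

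A minimum of 200 gDNA reads in the fit tests fewer inserts. It left lower members at 211 of 215 in siRRP40 and 145 of 151 in siNT cultures, beside 36.4% and 35.4% of all inserts. For siRRP40 over siNT 1 of 139 members was higher, beside 0.10% of all inserts. For 14Rik over siNT 19 of 108 members were higher and 1 lower, beside 6.52% and 4.84% of all inserts. In chromatin RNA 1 of 252 members was lower, beside 0.0135% of all inserts. Slopes were higher for 10 and lower for 12 of 32 members, beside 27.4% and 29.0% of all inserts. Members with 200 reads in every rule gDNA library gave 33 of 61 lower at 14Rik and 47 of 52 in siNT. In the main fits 18.5% and 30.7% of all inserts were lower there. DESeq2 gave 4 of 364 members higher for siRRP40 over siNT, beside 0.326% of all inserts. It gave 84 of 604 members lower in chromatin RNA, beside 3.07% of all inserts. For 14Rik over siNT it gave 77 of 357 members higher and 21 lower, beside 9.91% and 9.94% of all inserts. With no filter, 14Rik over siNT had 56 of 649 members higher and 11 lower, beside 4.36% and 4.67% of all inserts.

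Leaving out 1 screen, RNA and gDNA together, gave 135 to 350 lower members at 14Rik. For 14Rik over siNT, leaving out 1 screen or culture in that way gave 23 to 43 higher and 3 to 13 lower. Without 1 chromatin RNA library or the unsorted cells of 1 screen, 0 to 185 members were lower in chromatin RNA. The count of 185 came from a fit with a single chromatin library. Without 1 whole sort screen, slopes were higher for 57 to 87 members and lower for 13 to 136. Outside the stretch of numbers 31 of 337 members had a higher slope, beside 20.1% of the non-members there. With paired references summed 125 of 393 members had a lower slope, beside 13.1% of all inserts. Both alternatives were chosen after seeing the data. With paired references summed the median slope of all inserts moved to 0.35 per bin, and 68.2% of the calls over all inserts were higher. The causes were not tested.

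Without the replicate block, lower members numbered 365 in siRRP40, 349 in siNT and 266 at 14Rik, beside 27.7%, 27.7% and 16.7% of all inserts. Leaving the block out changed no count of members called by over 1.5 times. Over all inserts, the lower calls for 14Rik over siNT went from 465 to 283. With the culture letter as a replicate block between siRNAs, 0 members were called. The letters of siRRP40 and siNT RNA correlated at -0.0106 to 0.0202. Library totals without TMM moved the median of all inserts from -0.07 to 0.12 for 14Rik over siNT, with 66.0% of calls higher in place of 53.7%. Of the named inserts' alternatives, 163 kept their call and direction, 15 lost the call and 0 reversed. Members' low gDNA depth limits single values.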
